A study of Mus musculus with 8 samples.

Results

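The p53 family and its feedback regulators were examined as 10 genes chosen by name, namely the family members Trp53, Trp63 and Trp73, the inhibitors Mdm2, Mdm4, Ppm1d and Rchy1, and the cofactors and effectors Trp53inp1, Trp53inp2 and Zmat3. All 10 were represented on the array, by 17 of its 55681 probes. The array held 19965 genes with a RefSeq transcript accession. Thyroid RNA of female Balb/c mice, 8 weeks old and fed a diet of normal iodide content, was measured on 8 one-colour Agilent mouse arrays, 1 for each thyroid. In 4 mice the thyroid had absorbed 30 Gy from 99mTcO4-, the pertechnetate anion that thyrocytes take up through the sodium iodide symporter, and RNA was taken after 24 hours. The labels of the exposed samples are S539, S588, S589 and S590. The other 4 mice were controls, numbered 1 to 4, described in one place of the study as untreated and in another as given saline. No transgene or deletion was involved, and both groups shared strain, sex, age and diet.

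The p53 protein, encoded by Trp53, is a transcription factor that is held at a low level in unstressed cells because the ubiquitin ligase Mdm2 binds it and marks it for degradation. After DNA damage, kinases such as Atm and Chek2 modify p53, it escapes Mdm2, and it switches on genes of cell cycle arrest, repair and cell death. Mdm2 and Ppm1d are themselves targets of p53, so that the response carries its own negative feedback. The relatives p63 and p73 bind similar DNA sequences and are known best for roles in squamous and basal epithelium and in multiciliated cells and neurons, respectively.

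Sequences are given for probes of members that differed between the groups and of members that did not, because each gene is read here through 60 bases only. They are written 5′ to 3′ in the sense of the transcript, and the capitals in the Trp63 probe mark a run of 6 CAG triplets. Runs of 4 or more CAG triplets occurred in 13 probes of the array (0.0233%). Probe sequences and positions (mouse build mm9) come from the array files.
Trp53 (chr11:69404204-69404263): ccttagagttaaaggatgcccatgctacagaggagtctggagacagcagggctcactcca
Trp63, the brightest RefSeq probe (chr16:25871159-25871218): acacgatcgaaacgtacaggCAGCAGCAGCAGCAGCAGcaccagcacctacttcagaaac
Mdm4, second probe (chr1:134888407-134888466): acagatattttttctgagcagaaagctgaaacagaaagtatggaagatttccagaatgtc
Trp53inp1, second probe (chr4:11092530-11092589): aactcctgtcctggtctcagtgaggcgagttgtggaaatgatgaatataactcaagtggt

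RefSeq transcript start windows of GRCm38.p6, each from 250 bases before to 50 bases after an annotated start, covered 7 of the 10 genes with 10 windows. No window was available for Trp63, nor for Trp53inp1 and Zmat3, which differed between the groups. The p53 half-site, the decamer that p53 binds in pairs, was searched for by its degenerate consensus, which reads alike on both strands. It was found in 4 of these 10 windows, those of Mdm2, Ppm1d, Trp53 and 1 of the windows of Rchy1, and in 8.356% of all 32851 windows. The windows of Mdm4, which also differed between the groups, held none. A pair of half-sites separated by at most 13 bases was found in none of the 10 windows and in 0.0731% of all windows. A match is a description of the letters and not evidence of binding. The 250 bases before the start are shown for an inhibitor that differed between the groups, Mdm2, for one that missed the threshold, Ppm1d, and for Trp53. Capitals mark the half-site, whose first base lay 186 bases before the start in Mdm2, 132 in Ppm1d and 75 in Trp53.
Mdm2 (chr10:117710759-117711008, minus strand): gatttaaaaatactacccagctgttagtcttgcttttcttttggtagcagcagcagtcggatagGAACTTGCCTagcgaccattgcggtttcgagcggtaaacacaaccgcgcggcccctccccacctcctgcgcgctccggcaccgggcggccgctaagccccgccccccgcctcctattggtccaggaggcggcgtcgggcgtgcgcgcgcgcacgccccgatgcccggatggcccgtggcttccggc
Ppm1d (chr11:85311004-85311253, plus strand): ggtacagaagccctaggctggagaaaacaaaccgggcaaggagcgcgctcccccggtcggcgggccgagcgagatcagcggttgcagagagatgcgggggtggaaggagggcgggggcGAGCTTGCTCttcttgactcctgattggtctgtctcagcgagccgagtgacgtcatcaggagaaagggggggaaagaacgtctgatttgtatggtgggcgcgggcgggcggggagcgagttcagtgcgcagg
Trp53 (chr11:69580109-69580358, plus strand): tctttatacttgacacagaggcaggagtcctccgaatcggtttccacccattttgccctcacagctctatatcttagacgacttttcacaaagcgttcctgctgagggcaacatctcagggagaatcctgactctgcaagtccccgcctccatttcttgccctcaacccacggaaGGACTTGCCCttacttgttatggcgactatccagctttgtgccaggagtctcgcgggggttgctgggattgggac

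Between 60.5% and 77.3% of the spots were well above background on the 8 arrays, none was saturated, and none of the 18 spots of the 10 genes carried an outlier mark on any array. All arrays shared 1 slide and 1 scan, and because the exposed thyroids were placed first on the slide, position and group cannot be told apart. Thyrocyte markers were present, with 9 of 10 well above background on every array. Their mean log2 signal was 11.43 to 12.14 in controls and 11.03 to 11.28 in exposed thyroids, and 1 of the 10, Slc5a5 (the sodium iodide symporter), passed the threshold with a lower signal. The mean leaned on this gene, whose log2 fold change was −3.53. The median over the 10 markers was −0.30, and 2 of them had a positive log2 fold change. In bulk tissue, fewer cells of a type and less RNA per cell cannot be told apart. Controls 1 and 2 stood apart by thymocyte markers, with a mean log2 signal over 10 genes of 11.47 and 10.42 against 6.68 to 8.00 on the other 6 arrays, although none of the 10 passed the threshold.

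Of the 10 genes, 4 were higher in exposed thyroids at an adjusted p under 0.05 in limma (Mdm2, Mdm4, Trp53inp1 and Zmat3) and none was lower. Of all RefSeq genes, 0.917% were called higher and 0.306% lower by the same rule. The median log2 fold change was 0.51 over the 10 genes and −0.03 over all RefSeq genes. By role, none of the 3 family members passed, against 2 of the 4 inhibitors and 2 of the 3 cofactors and effectors. On 5 of the 10 genes every exposed array lay above every control array, which was the case for 5.52% of RefSeq genes, and on 1 gene, Trp53inp2, every exposed array lay below, as for 6.4%. At an unadjusted p under 0.05, 14.9% of RefSeq genes differed in either direction.

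**Figure D1:**
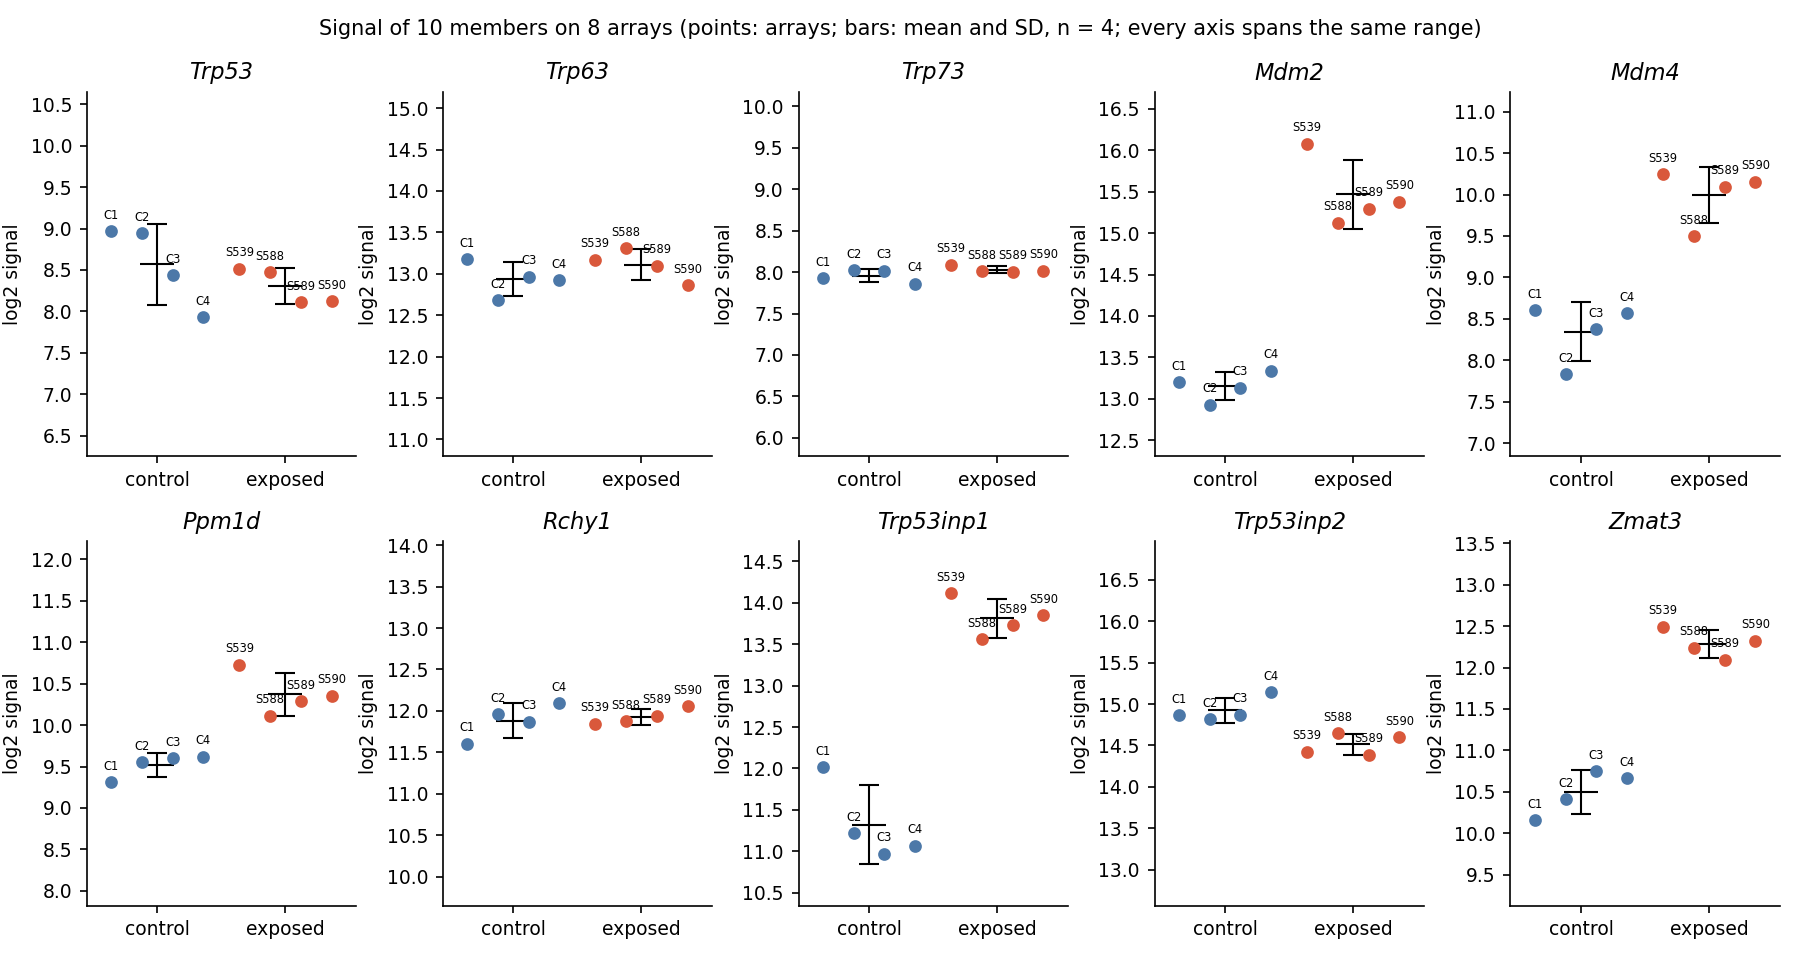
Log2 signal (vertical axes, quantile-normalized) of the probe read for each of the 10 genes on the control arrays (blue, C1 to C4 for controls 1 to 4) and the exposed arrays (red), with the mean and SD of 4 arrays. Every axis spans the same number of log2 units but starts elsewhere, since levels of different probes are not comparable; the groups are widely separated for Mdm2, Trp53inp1, Zmat3 and Mdm4 and overlap for Trp53, Trp63, Trp73 and Rchy1.

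Trp53, read by 1 probe with 2 spots, had log2 signals of 8.97, 8.94, 8.43 and 7.93 in controls 1 to 4 and of 8.51, 8.47, 8.11 and 8.12 in S539, S588, S589 and S590. The groups overlapped, and the controls were spread over the wider range, with control 4 the lowest of all 8 arrays. The log2 fold change was −0.27 (SE 0.26, 95% confidence interval −0.87 to 0.33, n = 4 and 4), with an adjusted p of 0.699 in limma. The 2 highest values were those of the controls with the most thymocyte marker signal. Without these 2 controls, an alternative chosen after seeing the data, the log2 fold change was 0.12 with an adjusted p of 0.835.

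Trp63 was read by 4 probes, and its brightest RefSeq probe, the one with the CAG run, gave 13.18, 12.68, 12.96 and 12.92 in controls and 13.17, 13.31, 13.10 and 12.86 in exposed thyroids. The ranges overlapped in part, with S588 above every control and control 2 below every exposed array. Its log2 fold change was 0.17 (SE 0.16), with an adjusted p of 0.686 in limma. The other 3 probes gave log2 fold changes of 0.00, 0.04 and −0.42, with adjusted p-values from 0.546 to 0.999, so that the probes did not share a direction and none was called. The probe with 0.04 read 9.53, 9.01, 9.23 and 9.44 in controls and 8.90, 9.33, 9.11 and 10.03 in exposed thyroids, with S590 standing above all other arrays. The same array was the highest of the exposed thyroids on the other 2 probes as well, and the lowest on the probe with the CAG run. Basal epithelial markers, which mark the cells in which p63 is best known, had a mean log2 signal of 7.96 to 8.91 in controls and 7.73 to 8.37 in exposed thyroids over 8 genes, of which 3 had a positive log2 fold change and none passed the threshold. Krt5, the keratin that defines this layer, had a log2 fold change of −1.66 with an adjusted p of 0.433 and overlapping groups. Itgb4, an integrin of the basal surface (0.89, adjusted p = 0.102), and Sfn, a 14-3-3 protein of squamous epithelium (0.92, adjusted p = 0.384), had all exposed arrays above all controls. That was the case for 5.52% of RefSeq genes. Most of the 8 markers had a negative log2 fold change, with a median of −0.36.

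Trp73 gave the narrowest spread of the 10 genes, with 7.93, 8.02, 8.02 and 7.86 in controls and 8.09, 8.01, 8.00 and 8.02 in exposed thyroids. The log2 difference was 0.07 (SE 0.12, 95% confidence interval −0.19 to 0.34), with an adjusted p of 0.819. A second probe, well above background on 3 control and 4 exposed arrays, read 5.86, 6.31, 6.20 and 6.11 in controls and 5.99, 6.79, 6.88 and 7.02 in exposed thyroids, with S539 inside the range of the controls. Its log2 fold change of 0.55 had an adjusted p of 0.421 and ranged from 0.14 to 0.83 over 5 scalings and background corrections (the background-subtracted signal scaled by quantiles or by the 75th percentile, normexp, no correction, and the deposited values). The third probe was not well above background on any array. Of the 6 multiciliated cell markers on the array, Foxj1, the transcription factor of motile cilia, was higher by a log2 of 2.49 with an adjusted p of 0.0213, while the other 5 did not pass. Among those, Tekt1, a ciliary microtubule protein, had a log2 fold change of −1.83 with an adjusted p of 0.0899. Over all 6 markers, Foxj1 included, the mean log2 signal was 8.38 to 9.02 in controls and 8.74 to 9.11 in exposed thyroids. The median log2 fold change over the 6 was 0.02, and 3 of them were positive.

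Mdm2, the ligase that ends the p53 response, had log2 signals of 13.20, 12.93, 13.14 and 13.34 in controls and of 16.08, 15.12, 15.30 and 15.38 in S539, S588, S589 and S590. No control came near any exposed array, the lowest exposed value lying 1.79 above the highest control. The rise was 2.32 on the log2 scale (SE 0.23, 95% confidence interval 1.80 to 2.84), which is 4.99-fold, with an adjusted p of 0.00714 in limma. Its probe (chr10:117126010-117126069, mm9) ranked 61 by p among 55681 probes. It was the only probe of this gene on the array. Over the 5 scalings and background corrections its rise ranged from 2.32 to 2.35.

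Mdm4, the relative of Mdm2 that binds p53 and masks its activation domain, had log2 signals of 8.60, 7.83, 8.37 and 8.57 in controls and of 10.24, 9.50, 10.10 and 10.16 in exposed thyroids (chr1:134886426-134886485, mm9). All exposed arrays lay above all controls, and within each group 1 array was low, control 2 and S588. The rise was 1.65 (SE 0.24), or 3.15-fold, with an adjusted p of 0.0293. This call was lost in 6 of the 8 fits with 1 array left out (adjusted p up to 0.105) and with the methods' t-test after Benjamini-Hochberg adjustment (0.0674). The second probe, whose sequence is given above, read 7.12, 6.90, 7.64 and 7.52 in controls and 9.61, 8.72, 9.29 and 9.06 in exposed thyroids, a rise of 1.88 with an adjusted p of 0.0213. The confidence intervals of both probes overlapped, at 1.10 to 2.21 and 1.30 to 2.45. Over the 5 scalings and background corrections the first probe ranged from 1.56 to 1.72 and the second from 1.54 to 1.99.

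Ppm1d, the phosphatase that removes activating phosphates from p53 and from its upstream kinases, had log2 signals of 9.31, 9.55, 9.60 and 9.62 in controls and of 10.73, 10.11, 10.29 and 10.36 in exposed thyroids (chr11:85160442-85160501, mm9). The groups did not overlap, and 5.52% of RefSeq genes had all exposed arrays above all controls. Such a separation by itself fixes the exact permutation p at 0.0286, the smallest that 4 against 4 arrays allow. The log2 fold change was 0.85 (SE 0.17, 95% confidence interval 0.46 to 1.24), and the adjusted p of 0.0841 in limma missed the threshold. It passed without background correction (0.0475), in the deposited values (0.0468), with a variance trend (0.0344) and with array weights (0.0374). In all 8 fits with 1 array left out it missed the threshold (adjusted p from 0.104 to 0.224 in limma).

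Rchy1, a RING finger ligase that also ubiquitinates p53, had log2 signals of 11.60, 11.96, 11.87 and 12.09 in controls and of 11.84, 11.87, 11.94 and 12.06 in exposed thyroids (chr5:92378571-92378630, mm9). The exposed arrays all fell inside the range of the controls. The log2 fold change was 0.05 (95% confidence interval −0.29 to 0.39), with an adjusted p of 0.919 in limma, so that a change of the size measured for Mdm2 or Mdm4 lay outside the interval.

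Trp53inp1, a stress-induced nuclear protein that favours phosphorylation of p53 and takes part in autophagy, had log2 signals of 12.02, 11.22, 10.97 and 11.07 in controls and of 14.11, 13.56, 13.73 and 13.85 in exposed thyroids (chr4:11101174-11101233, mm9). Control 1 was the highest control by a clear step, and it still lay below the lowest exposed array, S588. The rise was 2.49 (SE 0.26), or 5.63-fold, the largest of the 10 genes, with an adjusted p of 0.00845 in limma. Among 19965 RefSeq genes it ranked 48 by the size of the rise, next to 58 for Mdm2. The second probe, also shown above, read 8.19, 7.68, 7.94 and 8.07 in controls and 10.77, 9.61, 10.64 and 10.22 in exposed thyroids, a rise of 2.34 with an adjusted p of 0.0142.

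Trp53inp2, the paralogue of Trp53inp1 known for autophagy and as a coactivator of nuclear receptors, had log2 signals of 14.87, 14.82, 14.87 and 15.14 in controls and of 14.42, 14.65, 14.39 and 14.60 in exposed thyroids (chr2:155215492-155215551, mm9). All exposed arrays lay below all controls, as for 6.4% of RefSeq genes, which by itself fixes the exact permutation p at 0.0286. The log2 fold change was −0.41 (95% confidence interval −0.73 to −0.09), and the adjusted p was 0.299. The methods' t-test without adjustment passed it, and over the 5 scalings and background corrections the log2 fold change stayed between −0.43 and −0.37.

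Zmat3, a zinc finger protein that binds RNA and is a direct target of p53, had log2 signals of 10.16, 10.41, 10.75 and 10.66 in controls and of 12.49, 12.24, 12.09 and 12.32 in exposed thyroids (chr3:32233831-32233890, mm9). The exposed arrays lay close together and far above the controls. The rise was 1.79 (SE 0.18, 95% confidence interval 1.39 to 2.20), or 3.47-fold, with an adjusted p of 0.00714 in limma. It ranged from 1.79 to 1.82 over the 5 scalings and background corrections, and Zmat3 ranked 65 by p among all probes and 147 by the size of the rise among RefSeq genes.

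Read by probe, 6 of the 17 probes were called higher and none lower, and of all probes 0.587% were called higher and 0.194% lower. In Mdm4 and Trp53inp1, the 2 called genes with more than 1 probe, every probe was called. In Trp63 and Trp73, with 7 probes, none was called.

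**Figure D2:**
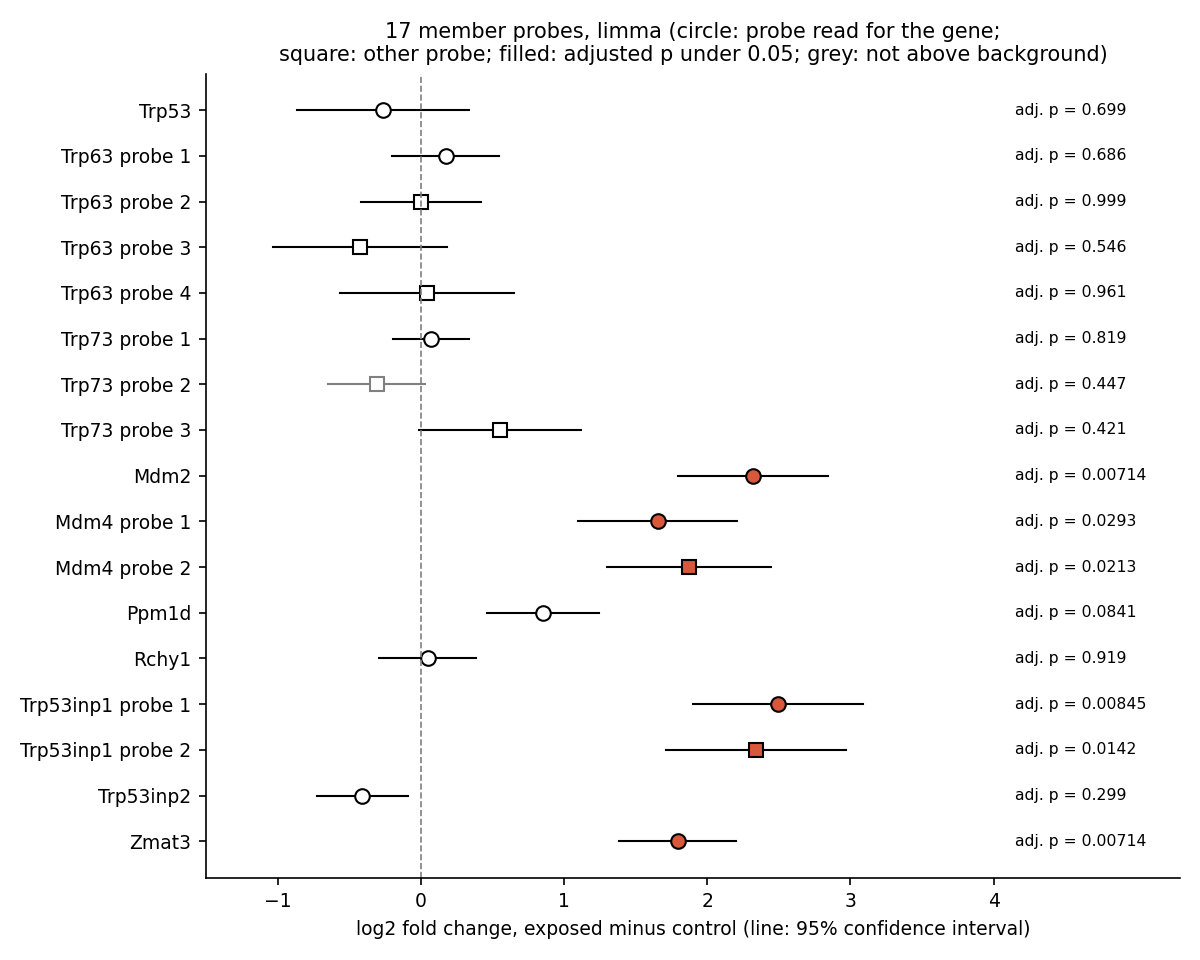
Log2 fold change, exposed minus control, of all 17 probes (horizontal axis) with the 95% confidence interval and limma's adjusted p at the right. Filled symbols passed the threshold: the 6 probes of Mdm2, Mdm4, Trp53inp1 and Zmat3 have intervals wholly above 1, whereas 9 others have intervals that include 0 and those of Ppm1d and Trp53inp2 lie on either side of it.

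The difference between the quantile-normalized signals of a pair of members was taken on each array, and 6 pairs were compared by two-sided exact permutation tests over the 70 assignments of arrays, with Benjamini-Hochberg adjustment over the pairs. Mdm2 minus Trp53 was 2.58 higher in exposed thyroids (exact p = 0.0286, adjusted 0.0343), and Mdm4 minus Trp53 was 1.92 higher with the same p-values. Ppm1d minus Trp53 was 1.12 higher with overlapping groups (exact p = 0.0571, adjusted 0.0571). Mdm2 minus Mdm4 was 0.66 higher, from 4.60 to 5.10 in controls and from 5.20 to 5.83 in exposed thyroids (exact p = 0.0286, adjusted 0.0343). With the second probe of Mdm4, an alternative chosen after seeing the data, the groups overlapped and the difference was 0.44 (exact p = 0.0857, adjusted 0.0857), so that the difference between Mdm2 and Mdm4 passed the test with 1 of the 2 probes. The difference with the first probe also missed the threshold with scaling to the 75th percentile (0.61, adjusted exact p = 0.0571) and without control 1, S539 or S588 (0.54 to 0.61). Trp53inp1 minus Trp53inp2 was 2.90 higher and Mdm2 minus Rchy1 was 2.27 higher (both exact p = 0.0286, adjusted 0.0343). For these pairs, and for Mdm2 and Mdm4 each minus Trp53, the ranges of the single genes already set the groups apart. Their p-values therefore restate the single-gene differences and are not further support for them. Without S539, none of the 6 pairs passed after adjustment, with adjusted exact p-values of 0.0571 to 0.0857. Groups that are separate cannot come to overlap when an array is left out. The smallest exact p is then still 0.0286, but with groups of unequal size separate groups do not always reach it. A pair's adjusted p then depends on how many other pairs reach the smallest exact p. Losing a pair in this way therefore does not show that its difference rests on the array left out. Mdm4 minus Trp53 was also lost without S589 or S590 (adjusted exact p = 0.0686), and Ppm1d minus Trp53 passed without control 4 (1.36, adjusted exact p = 0.0286).

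**Figure D3:**
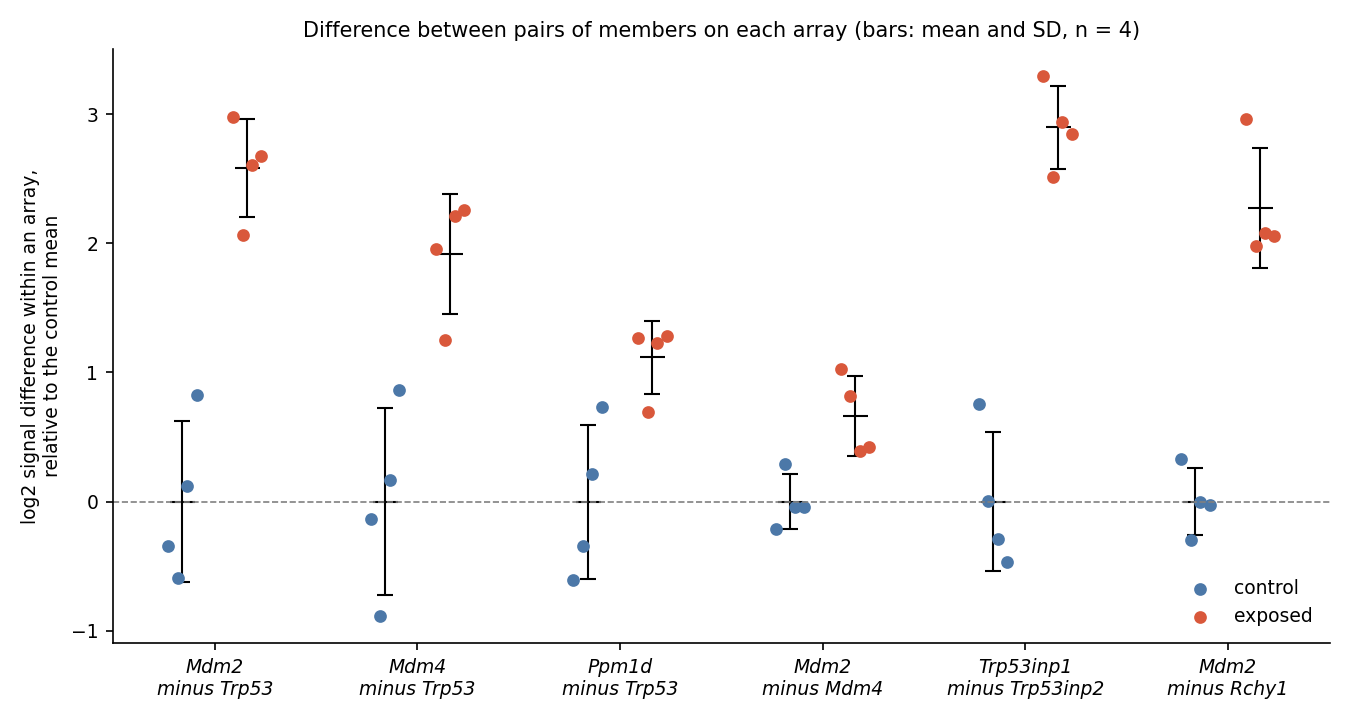
Log2 signal of one gene minus that of another on the same array (vertical axis), shifted so that the control mean of each pair is 0, for control arrays (blue) and exposed arrays (red) with the mean and SD of 4 arrays. The groups are separate in 5 pairs and overlap in Ppm1d minus Trp53, where the lowest exposed array lies just below the highest control.

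Among the exposed thyroids, S539 had the highest signal for all 5 genes whose groups were apart upwards (Mdm2, Mdm4, Ppm1d, Trp53inp1 and Zmat3), and S588 had the lowest for 4 of them, with S589 the lowest for Zmat3. The same array was highest for 15 of 20 textbook p53 targets, and S588 was lowest for 13. Over 13411 RefSeq genes, those whose log2 signal averaged at least 7, S539 was the highest exposed array for 37.1% and S588 the lowest for 42.6%. The counts for the 5 genes were identical under scaling to the 75th percentile, normexp, no background correction and the deposited values. No sample label gives a dose for a single animal, and this order was seen in the data first and carries no test.

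When 1 array was left out at a time, Mdm2, Trp53inp1 and Zmat3 stayed past the threshold in all 8 fits, with adjusted p-values up to 0.0400, 0.0452 and 0.0414. The 6 fits without the Mdm4 call were those without control 2, 3 or 4 or without S539, S589 or S590, and its log2 fold change stayed between 1.48 and 1.82. The second probe of Mdm4 lost it in 5, with an adjusted p up to 0.0821, and that of Trp53inp1 in 3, up to 0.0589. With both thymocyte-rich controls left out, only Trp53inp1 passed (2.79, adjusted p = 0.0308), and Mdm2 (2.23, 0.0909), Zmat3 (1.58, 0.0552) and Mdm4 (1.53, 0.131) did not. That fit had 2 controls and called 89 probes in all, against 435 with 8 arrays.

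**Figure D4:**
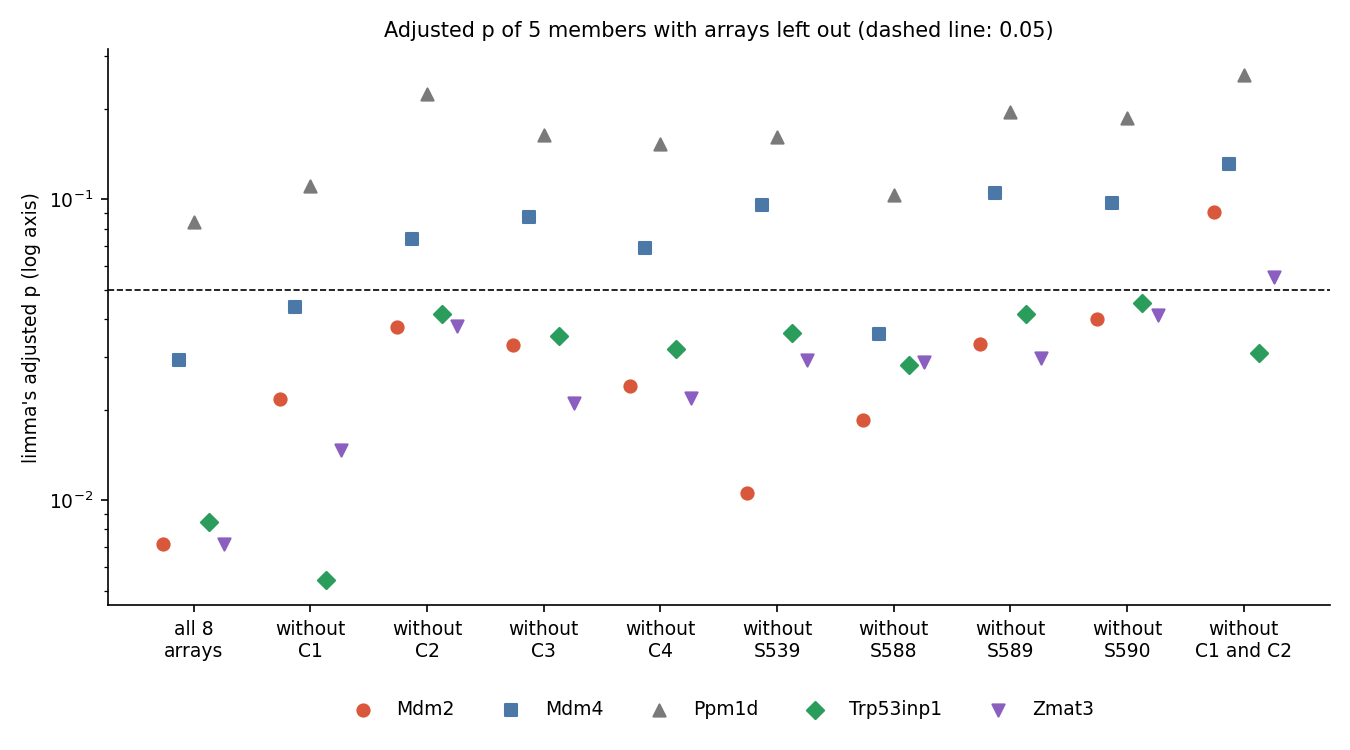
Adjusted p in limma (vertical axis, logarithmic) of 5 genes with all 8 arrays, with each array left out in turn and with controls 1 and 2 (C1 and C2) both left out. Mdm2, Trp53inp1 and Zmat3 lie below the dashed line at 0.05 in the first 9 positions, Mdm4 lies above it in 6 of the 8 fits without 1 array, and Ppm1d lies above it throughout.

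Other genes of the pathway were read from 5 lists of known regulators of p53, 55 genes in all, and 1 of these was called, with a median log2 fold change of 0.03. Of all RefSeq genes, 0.917% were called higher and 0.306% lower. At these shares a list this short would mostly hold no called gene, so an empty list says little about its genes. The called gene was Ppp1r13l, listed among 12 cofactors but known as the inhibitory member of the family of p53-binding proteins to which it belongs. Its log2 signal was 10.48 to 10.71 in controls and 12.32 to 13.18 in exposed thyroids, a rise of 1.99 (SE 0.21) with an adjusted p of 0.00887 in limma. Without both thymocyte-rich controls the log2 fold change was 2.00 with an adjusted p of 0.103. None of the other 11 cofactors passed, and Kat2b, an acetyltransferase, had the largest difference among them (−0.34, adjusted p = 0.687).

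None of the 10 other feedback genes passed. Ccng1, the cyclin that directs a phosphatase to Mdm2 and is itself a p53 target, had log2 signals of 12.60 to 14.11 in controls and 14.78 to 15.12 in exposed thyroids. The difference of 1.81 had an adjusted p of 0.0584 in limma. It was 0.0115 without control 4 and 0.0988 to 0.165 with any other single array left out. Without both thymocyte-rich controls the log2 fold change was 1.47 with an adjusted p of 0.238. None of the 12 kinases and adaptors that act upstream of p53 passed. Chek2, the checkpoint kinase, had the largest log2 fold change there (0.62, adjusted p = 0.203), and its exposed arrays all lay above the controls. In this list 1 gene was apart upwards and 1 downwards, and over all 55 genes 5 were apart upwards and 4 downwards. The shares over RefSeq genes were 5.52% and 6.4%. None of the 12 other ligases and deubiquitinases passed, where Wwp1, a ubiquitin ligase, had −0.28 with an adjusted p of 0.563. None of the 9 ribosomal and nucleolar binders of Mdm2 passed either, and Gltscr2, a nucleolar protein, had 0.34 with an adjusted p of 0.597.

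Downstream, 16 of 20 textbook targets of p53 were called higher and none lower, with a median log2 fold change of 1.93. The shares over all RefSeq genes were 0.917% higher and 0.306% lower, with a median of −0.03. This list was chosen with earlier results of these data known, and the study had reported Cdkn1a, Bax and Fas as higher on these arrays. The count is therefore not independent support. The 4 of smallest p were Ddit4, an inhibitor of mTOR signalling (2.34, adjusted p = 0.00130), Bax, a pore-forming cell death protein (1.98, adjusted p = 0.00286), Cdkn1a, the cyclin-dependent kinase inhibitor p21 (3.83, adjusted p = 0.00320), and Bbc3, the cell death activator Puma (1.83, adjusted p = 0.00633). Eda2r, a receptor of the tumour necrosis factor family, was not well above background on any control array. Its log2 fold change was 2.17 (SE 0.44), an estimate of 4.51-fold, and the adjusted p of 0.0908 in limma missed the threshold. Sesn1, Gadd45a and Rrm2b did not pass either, with log2 fold changes of −0.33, 0.10 and −0.01.

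**Figure D5:**
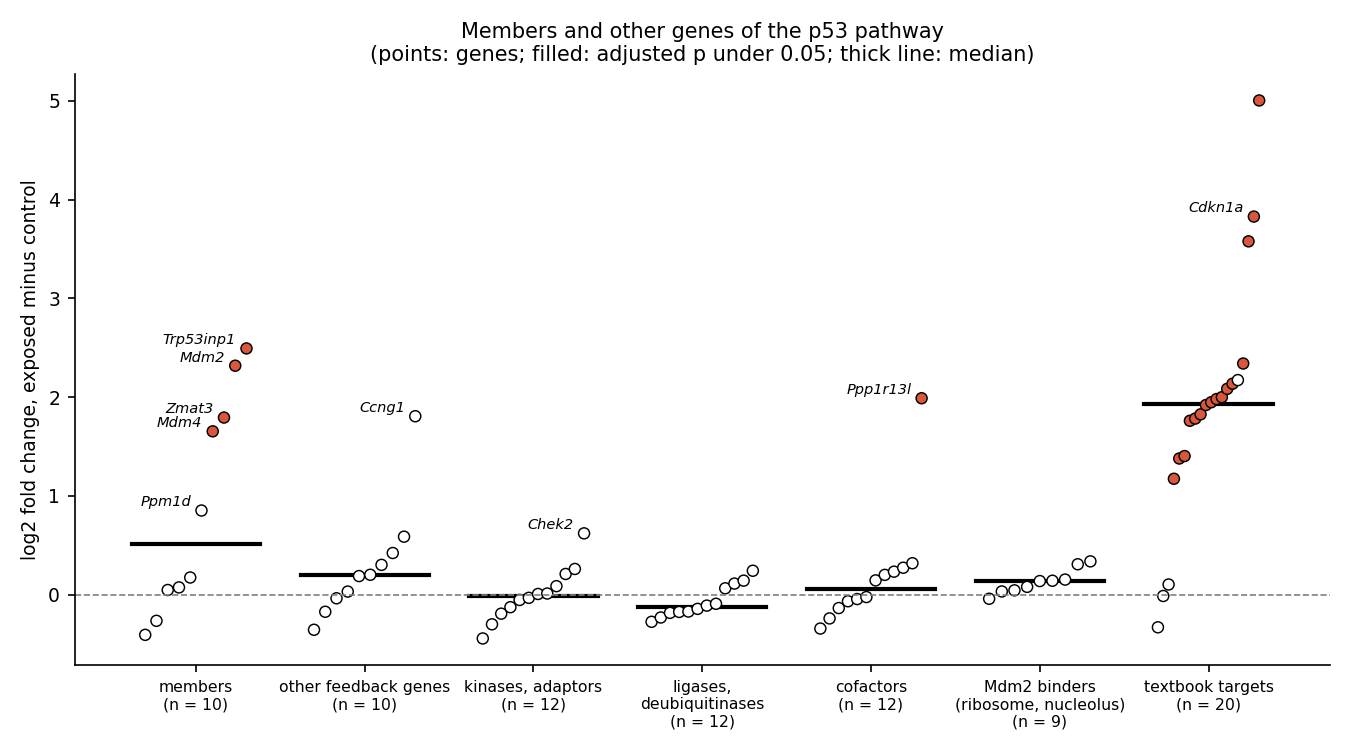
Log2 fold change, exposed minus control, of single genes (points, filled where limma's adjusted p was under 0.05) in the 10 members and in 6 lists of other p53 genes, with the median of each as a thick line. Filled points lie among the members and the textbook targets, apart from Ppp1r13l among the cofactors, and every point of the other 4 regulator lists is open.

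Mdm2, the gene of smallest p among the 10, was set against 13410 other RefSeq genes, limited to those whose log2 signal averaged at least 7. Over the 8 arrays its profile was most like those of Inf2, a formin (Pearson correlation 0.997), Tnfrsf10b, a death receptor (0.996), Plk5, a polo-like kinase (0.996), Atp6v1d, a subunit of the vacuolar proton pump (0.995), and Olfr1229, an olfactory receptor (0.994). All 5 were themselves called higher, so that the likeness mostly restates the difference between the groups. After the group means were subtracted, the closest genes were Eif1, a translation initiation factor (0.986), Sepx1, a selenoprotein (0.961), Klhl29, a kelch-like protein (0.959), Inf2 (0.958) and Cry2, a repressor of the circadian clock (0.956), and only Inf2 was in both sets. These correlations describe 8 arrays that share the scaling, and no p is given.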

How the data were processed

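The authors deposited, for each array, scanner output with the intensity of every spot, made with Agilent Feature Extraction 10.7.3.1, and a table of log2 values, which matched the quantile-normalized log2 median spot signal within 0.0378. The methods state limma, quantile normalization between slides and an adjusted p under 0.05. Here, log2 background-subtracted intensity was quantile-normalized, spots of a probe were averaged, and exposed and control arrays were compared with limma 3.58.1 (lmFit, eBayes; R 4.3.3) over 55681 probes with Benjamini-Hochberg adjustment. The test was checked on simulated data.

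A gene was read by its RefSeq probe of highest mean signal. The members and lists were chosen with earlier results of these data known. Named were all members with all probes, up to 4 called genes and the largest other difference of each p53 list, defining markers, and the 5 genes most like the member of smallest p. Marker lists were thyrocyte, basal epithelium, multiciliated cell, skeletal muscle, thymocyte, macrophage, parathyroid, C cell and adipocyte. The labels give the groups no shared replicate numbers. The number of arrays limits the precision. Where no array of a group had a probe well above background, the fold was taken against a floor. The floor was the higher, per array, of that probe's signal and the lowest signal well above background. It left the fold of Eda2r unchanged, so that value is an estimate and not a bound. Alternatives were 75th percentile scaling, normexp (offset 50), no background correction, dim probes left out, the deposited values, outlier marks, a variance trend, array weights, the methods' t-test, other probe and fold rules, and leaving out each array. RefSeq windows (GRCm38.p6) served for promoters, and no exon or UTR annotation of the probes' build was used here.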

Additional observations from a re-analysis of the deposited data

Results flagged for a closer look

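Within groups of 4 arrays, 20 groups of the 10 genes were examined for a value far from the other 3, and 2 were found, where chance gives about 1. Trp73 in S539 had a log2 signal of 8.09, against 8.00 to 8.02 in the other exposed thyroids. Trp53inp2 in control 4 had a log2 signal of 15.14, against 14.82 to 14.87 in the other controls.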

How the results depend on the processing

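The count of 4 genes called higher was 3 to 5 over the settings named in the methods above, and 3 to 4 with each array left out. Alternatives other than leaving out arrays that changed it added Ppm1d, or lost Mdm4 (the methods' t-test after Benjamini-Hochberg adjustment). Without both thymocyte-rich controls, 1 of 10 genes, 1 of 17 probes and 0 of 55 other genes were called, and the log2 fold changes of Trp53 (0.12) and Rchy1 (−0.054) changed sign. With each array left out, 3 to 6 probes and 1 to 2 other genes were called, Rchy1 ranged from −0.046 (without control 1) to 0.12, and the pair differences ranged from 2.39 to 2.86 (Mdm2 minus Trp53), 1.62 to 2.21 (Mdm4 minus Trp53), 0.92 to 1.36 (Ppm1d minus Trp53), 0.54 to 0.76 (Mdm2 minus Mdm4), 2.74 to 3.15 (Trp53inp1 minus Trp53inp2) and 2.04 to 2.38 (Mdm2 minus Rchy1). Mdm2 minus Mdm4 was 0.61 with scaling to the 75th percentile and 0.44 with the second probe of Mdm4. Ccng1 joined Ppp1r13l, giving 2 other genes, with normexp, no background correction, the deposited values, dim probes left out, a variance trend and array weights. The methods' t-test without adjustment called 8 other genes and 1 member lower (Trp53inp2). The called probes were 75.2% higher among 435, against 84.7% of 577 with scaling to the 75th percentile, 67.5% of 955 in the deposited values and 60.9% of 959 with array weights. Apart from the changes named here and beside the results, the 10 genes kept their direction. No paired analysis was possible because the groups share no replicate numbers. With 4 arrays a group, small differences could not be resolved, and the causes of these changes were not tested.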

Other observations

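Marker lists of other cell types were measured beside the 10 genes. Of 8 macrophage markers, Cx3cr1, a chemokine receptor, was lower by limma (−2.43, adjusted p = 0.00714) and the other 7 did not pass. Over all 8, Cx3cr1 included, the mean log2 signal was 9.73 to 10.04 in controls and 9.10 to 9.49 in exposed thyroids, without overlap. The median log2 fold change over the 8 was −0.45, and 1 of them, Cd68, was positive (0.63). On 4 of the 8, every exposed array lay below every control array, which was the case for 6.4% of RefSeq genes. None of 8 skeletal muscle markers passed, with a median log2 fold change of −1.01 and a mean log2 signal of 15.64 to 16.96 in controls and 14.43 to 16.49 in exposed thyroids. None of 3 parathyroid, 4 C cell or 5 adipocyte markers passed. The part of these differences in the values of the 10 genes was not tested.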
